A study of Montastraea cavernosa with 311 samples.

Results

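Mcavernosa00617 and Mcavernosa19834 are 2 of the 17901 isogroups, or clusters of assembled transcripts, of the reef coral Montastraea cavernosa in a count table that also holds isogroups of its Cladocopium algae. The deposited annotation names the first as a myeloid lymphoid or mixed-lineage leukemia gene, here called the MLL isogroup, and the second as PR domain containing 6, here called the PRDM6 isogroup. Both were picked because earlier work on these libraries had singled them out, the MLL isogroup from the contrast between depths in natural colonies. Its levels by natural depth are therefore a description without a test. So are all arm, depth and site differences of the PRDM6 isogroup, for which the contrast that picked it is not recorded.

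Mixed-lineage leukemia proteins belong to the KMT2 family of histone methyltransferases. In animals and yeast these enzymes carry a SET domain and work in COMPASS-type complexes that methylate lysine 4 of histone H3, a mark of active promoters and enhancers, and the founding fly member, trithorax, keeps developmental genes switched on. PRDM proteins combine a PR domain, a relative of the SET domain, with zinc fingers that bind DNA, and mouse PRDM6 is known as a repressor of gene expression in vascular smooth muscle. What the coral proteins do is not stated by the sources, and both names rest on the annotation alone.

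The study asked how expression differs between mesophotic and shallow colonies at 4 sites, called WFGB, EFGB, PRTER and CBC, in the Gulf of Mexico and Belize, and how it changes through time in an experiment on depth. RNA was sequenced from whole samples as short tags. Libraries with at least 20000 host counts were kept, and 13 fell short. Natural colonies gave 28 mesophotic libraries from WFGB, 21 from EFGB, 41 from PRTER and 22 from CBC. Their shallow libraries numbered 35 for WFGB, 39 for EFGB, 31 for PRTER and 36 for CBC. The experiment gave 45 libraries, at WFGB and EFGB alone. The experiment held 8 transplants, 7 mesophotic controls and 10 shallow controls at the time label 6, and 5 transplants, 6 mesophotic controls and 9 shallow controls at the time label 12. The labels give neither the unit of these times, nor a depth in metres, nor the depth to which transplants were moved. Colony tags in the titles linked 72 libraries, 69 of them kept, to 28 colonies, and the baseline libraries of transplanted colonies carry the mesophotic label. Each library holds a mixture of coral cells, so fewer cells of a type and less RNA per cell cannot be told apart.

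Host totals of the kept libraries ran from 20003 to 1145508 counts with a median of 139933, and 391 to 7040 host isogroups were detected per library. Levels are given as CPM, the counts of an isogroup per 1000000 host counts of the library. An isogroup with 0 counts was undetected to a floor of 3 counts, which is 150 CPM in the shallowest kept library, and intervals and floors cover counting error only. Titles carry a month and year pattern (X-14, V-16 and others) or a code without one, and all X-14 libraries were shallow ones. No pair of libraries was identical.

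Both isogroups had 0 counts in most libraries, and a few libraries held most counts of the MLL isogroup. The MLL isogroup was detected in 50 of the kept libraries (16.8%) with 1796 counts in all, and 5 libraries held 68.5% of them. The PRDM6 isogroup was detected in 134 libraries (44.97%) with 9913 counts, of which 5 libraries held 35.7%. Both were detected in fewer libraries than most isogroups with as many counts or more. Of the 3019 host isogroups with at least as many counts as the MLL isogroup, 6.23% were detected in fewer libraries, and their median was 139 libraries. Of the 833 with at least as many counts as the PRDM6 isogroup, 4.44% were detected in fewer, and their median was 230 libraries. The MLL isogroup reached 1077 CPM (95% Wilson interval 949 to 1222) in a CBC mesophotic library with 240 of its 222823 host counts, where it ranked 270th among host isogroups. The PRDM6 isogroup reached 2272 CPM (1986 to 2599) in a CBC shallow library with 93313 host counts, ranked 90th.

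The MLL isogroup was detected more often in mesophotic than in shallow natural colonies, in 29 mesophotic libraries (25.9%) against 15 shallow libraries (10.6%). A level of 100 CPM or more, a mark chosen after the values were seen, was reached in 17 mesophotic and 2 shallow libraries. Pooled over libraries, the 1642 mesophotic counts came to 70.4 CPM, against 1.17 CPM for the 33 shallow counts. Most libraries of both depths stood at 0, so the difference lay in how many libraries held the transcript and how much these held.

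At WFGB the MLL isogroup was detected in 9 of 28 mesophotic libraries, with a median of 0 and a highest value of 405 CPM, against 6 of 35 shallow libraries with a median of 0 and a highest value of 124.96 CPM. At EFGB it was detected in 4 of 21 mesophotic libraries (median 0, highest 356 CPM) and 4 of 39 shallow libraries (median 0, highest 138 CPM). At both sites the depths overlapped, and the mesophotic libraries held the highest values.

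At PRTER it was detected in 10 of 41 mesophotic libraries (median 0, highest 924 CPM) and 4 of 31 shallow libraries (median 0, highest 94.7 CPM). At CBC it was detected in 6 of 22 mesophotic libraries (median 0, highest 1077 CPM) and in 1 of 36 shallow libraries, with 1 count and 3.86 CPM. CBC shallow libraries were thus nearly without it, and every CBC value above that one was mesophotic. Among the high CBC values, 1077 CPM rested on 240 counts and 905 CPM on a similar number, while 174.4 and 199 CPM rested on 7 and 4 counts.

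On the scale of log2(host CPM + 1), the mesophotic mean of the MLL isogroup lay above the shallow mean at all 4 sites. The difference, mesophotic minus shallow, was 1.20 ± 0.69 (SE) at WFGB, 0.73 ± 0.68 at EFGB, 1.22 ± 0.57 at PRTER and 1.81 ± 0.74 at CBC, with a mean over sites of 1.24 ± 0.34. Site means in mesophotic colonies fell in the order WFGB (2.07 ± 3.16, SD), CBC (1.87 ± 3.48), PRTER (1.72 ± 3.23) and EFGB (1.30 ± 2.86), and no neighbours in that order differed beyond their spread. Shallow means ran from 0.87 ± 2.06 at WFGB through 0.57 ± 1.75 at EFGB and 0.50 ± 1.52 at PRTER to 0.06 ± 0.38 at CBC, again with neighbours closer than their spread. A permutation test between the 4 sites within depth, over all kept natural libraries, gave F = 0.55 (p = 0.756, and 0.756 after Benjamini-Hochberg adjustment over both isogroups).

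**Figure D1:**
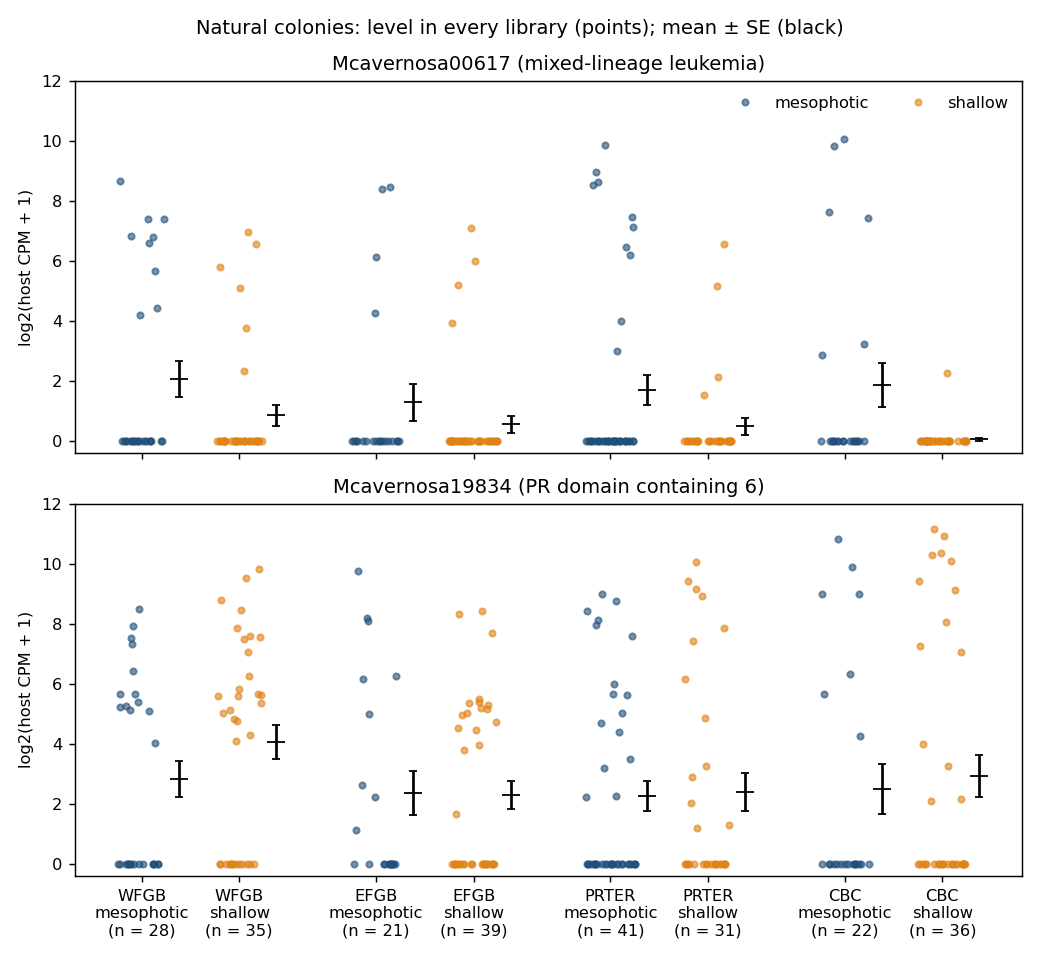
Level of both isogroups in every kept natural library, as log2(host CPM + 1), by site with mesophotic libraries left of shallow ones; black marks show mean ± SE. Most MLL points sit at 0 and the highest ones are mesophotic at every site, while PRDM6 points of both depths spread over the same range.

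The depth difference of the MLL isogroup varied between sets of titles within a site. At PRTER it was 2.58 ± 0.84 (SE) in the VIII-13 titles, with 7 of 22 mesophotic and 0 of 5 shallow libraries detected. In the coded PRTER titles it was 0.12 ± 0.52, with 3 of 19 mesophotic and 4 of 26 shallow libraries detected. At WFGB it was 1.96 ± 0.96 in coded titles (8 of 21 mesophotic and 1 of 11 shallow libraries detected) and 0.60 ± 0.60 in V-16 titles (1 of 7 and 0 of 2). At EFGB it was 1.44 ± 0.78 in coded titles (3 of 16 mesophotic and 0 of 4 shallow libraries detected) and 1.07 ± 1.07 in V-16 titles (1 of 4 and 0 of 10). Where no shallow library was detected the difference could not fall below 0, so its sign in those sets carries no weight. The difference was lowest in the coded PRTER libraries, and the errors of several sets overlapped. CBC had III-16 titles only, so its value cannot be split.

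Detection also moved with how many host isogroups a library held. Split at the median of 2147 detected isogroups, the MLL isogroup was found in 39 of 149 libraries at or over the median and in 11 of 149 under it. In natural colonies it was found in 19 of 49 mesophotic and 14 of 75 shallow libraries at or over the median. Under the median it was found in 10 of 63 and 1 of 66. These are the libraries of the contrast that picked the MLL isogroup, so neither the split nor the thinning below is separate support. Mesophotic libraries had a median of 1914 detected isogroups and 162610 host counts, against 2375 isogroups and 106774 host counts in shallow libraries. Thinned to 20000 host counts each, 20.7% of mesophotic and 6.0% of shallow libraries were expected to show the MLL isogroup. The share of symbiont counts had a median of 12.8% in mesophotic and 8.06% in shallow libraries, and its part in the result was not tested.

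By natural depth the PRDM6 isogroup was detected in 45 mesophotic libraries (40.2%) and 66 shallow libraries (46.8%). Averaged over sites the difference was -6.79 ± 6.42 percentage points (SE). It was -0.30 when at least 2 counts were asked for, -3.56 after thinning and -2.70 without the X-14 libraries. A level of 100 CPM was reached in 17 mesophotic and 28 shallow libraries. Pooled levels were 130 CPM in mesophotic and 134 CPM in shallow libraries. Detected libraries had median levels of 49.9 CPM in mesophotic and 47.8 CPM in shallow colonies.

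At WFGB the PRDM6 isogroup had a median of 0 and a highest value of 358 CPM in mesophotic libraries (13 of 28 detected), against a median of 31.6 and a highest value of 912 CPM in shallow libraries (22 of 35 detected). At EFGB it had a median of 0 and a highest value of 868 CPM in mesophotic libraries (9 of 21) and a median of 0 and a highest value of 340 CPM in shallow libraries (17 of 39). WFGB shallow colonies were the only natural group in which most libraries held the transcript.

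At PRTER the PRDM6 isogroup had a median of 0 and a highest value of 502 CPM in mesophotic libraries (16 of 41), and a median of 0 and a highest value of 1056 CPM in shallow libraries (13 of 31). At CBC it had a median of 0 and a highest value of 1827 CPM in mesophotic libraries (7 of 22), and a median of 0 and a highest value of 2272 CPM in shallow libraries (14 of 36). The depths overlapped at every site. CBC libraries that held the transcript held much of it, with a median of 508 CPM among the 21 detected, while the median was 49.6 CPM among the 35 detected at WFGB.

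On the log2(host CPM + 1) scale the difference of the PRDM6 isogroup, mesophotic minus shallow, was -1.24 ± 0.84 (SE) at WFGB, 0.06 ± 0.87 at EFGB, -0.15 ± 0.81 at PRTER and -0.43 ± 1.10 at CBC. Its mean over sites was -0.44 ± 0.46, within its own error of 0. Mesophotic means ran from 2.83 ± 3.22 (SD) at WFGB through 2.50 ± 3.96 at CBC and 2.35 ± 3.37 at EFGB to 2.25 ± 3.18 at PRTER. Shallow means ran from 4.06 ± 3.44 at WFGB through 2.92 ± 4.23 at CBC and 2.404 ± 3.55 at PRTER to 2.29 ± 2.85 at EFGB. Neighbours in both orders lay within their spread. These site differences are a description without a test, since the contrast that picked the PRDM6 isogroup is not recorded.

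Presence and amount of both isogroups moved in opposite ways with the number of host isogroups detected. The PRDM6 isogroup was found in 89 of 149 libraries at or over the median of detected isogroups, at a median of 47.3 CPM where detected. Under that median it was found in 45 of 149 libraries, at a median of 468 CPM. For the MLL isogroup these were 39 of 149 libraries at 73.5 CPM, and 11 of 149 at 356 CPM. How many of all host isogroups do likewise was not counted. Of the 58 libraries in which the PRDM6 isogroup reached 100 CPM or more, the median library had 2054 detected isogroups. In 76 libraries it was detected below that level. The median library of these had 3650 isogroups, and 61 of these detections rested on 1 or 2 counts. The 21 libraries in which the MLL isogroup reached 100 CPM had a median of 3331 isogroups.

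**Figure D2:**
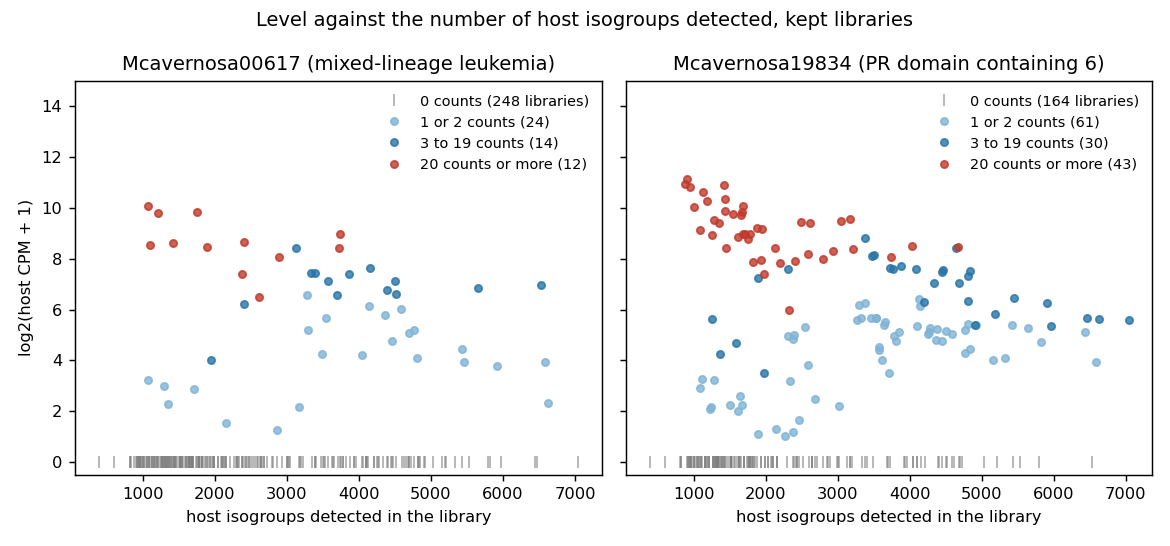
Level of each isogroup (log2(host CPM + 1)) against the number of host isogroups detected in the library, for all kept libraries; colour gives the number of counts behind a value and grey ticks are libraries at 0. Detections on 1 or 2 counts gather in libraries with many isogroups. The highest value of each isogroup lies in a library under the median of detected isogroups.

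Both isogroups were detected in 29 libraries and both reached 100 CPM in 2. The PRDM6 isogroup reached that level in 9.52% of the 21 libraries in which the MLL isogroup did, and in 19.5% of all kept libraries. It stood at 0 in 52.4% of these 21 libraries and in 55.03% of all. The MLL isogroup stood at 0 in 87.9% of the 58 libraries in which the PRDM6 isogroup reached 100 CPM and in 83.2% of all. After the mean of each site and depth was removed, their Spearman correlation over the kept natural libraries was 0.10, which placed each in the middle of the 5075 host isogroups compared with the other (ranks 2532 and 2433).

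In the experiment the PRDM6 isogroup was undetected in all 5 kept transplants at the time label 12. It was detected in 5 of 6 mesophotic controls and in 9 of 9 shallow controls at that time. The transplants were not the shallowest libraries: their host totals ran from 213621 to 731088 counts, which put their floors between 4.10 and 14.0 CPM. Mesophotic controls had 0 CPM in the single EFGB library and 26.3, 39.03, 42.4, 80.8 and 198 CPM in the 5 WFGB libraries.

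Shallow controls at 12 had 10.3, 763, 1603 and 1943 CPM at EFGB. At WFGB they had 41.5, 41.6, 86.9, 334 and 594 CPM. The floors of all transplants thus lay below 8 of the 9 shallow controls and below the 5 detected mesophotic controls. The shallow control at 10.3 CPM, on 1 count, lay within the range of these floors, and the shallow and mesophotic controls overlapped. A sixth transplant at 12, from EFGB, was left out for its total of 15536 host counts, and it held 2 counts of the PRDM6 isogroup, or 129 CPM.

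At 12 the mean log2(host CPM + 1) of the PRDM6 isogroup was 0 in transplants, 4.92 ± 2.61 (SD) in mesophotic controls and 7.73 ± 2.62 in shallow controls. The differences were -4.92 ± 1.07 (SE) for transplants minus mesophotic controls, -7.73 ± 0.87 for transplants minus shallow controls and -2.81 ± 1.38 for mesophotic minus shallow controls. They depend on the pseudocount, since 1 group stood at 0. With the library of 15536 host counts taken in, the first pair became -3.75 ± 1.58 and -6.56 ± 1.46. Transplants at 12 had a median of 1633 detected isogroups, against 4096 in mesophotic and 3221 in shallow controls. Median host totals were 390284, 49206 and 116697 counts in that order. How many of all host isogroups were likewise absent from the 5 transplants and present in the controls was not counted. The absence is therefore not shown to be particular to the PRDM6 isogroup. Thinned to 20000 host counts, detection was expected in 61.3% of the 6 mesophotic controls and in 83.7% of the 9 shallow controls. For the 5 transplants the thinned value is 0 by construction, since they held no counts.

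At the time label 6 the PRDM6 isogroup was detected in 2 of 8 transplants, both from WFGB, at 254.8 and 849 CPM. It was detected in 3 of 7 mesophotic controls, at 1.02 and 191.5 CPM at WFGB and 4.55 CPM at EFGB. Among shallow controls it was detected in 4 of 5 EFGB libraries, at 340, 468, 698 and 742 CPM, and in 0 of 5 WFGB libraries.

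All arms overlapped at 6. Within the shallow controls all detections were at EFGB, where 1 library stood at 0 like those of WFGB. How many of all host isogroups were likewise detected at EFGB alone was not counted. The differences in mean log2(host CPM + 1) were 0.63 ± 1.80 (SE) for transplants minus mesophotic controls, -1.41 ± 2.08 for transplants minus shallow controls and -2.04 ± 1.82 for mesophotic minus shallow controls. With WFGB alone, the differences to the shallow controls turned to 3.55 ± 2.19 for transplants and 1.72 ± 1.48 for mesophotic controls. The first difference turned to -0.19 or -0.44 without 1 or the other of the 2 detected transplants.

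Within colonies the PRDM6 isogroup often changed between detected and undetected. Of 23 colonies with kept libraries at baseline and at 6, it was detected at both in 3, only at baseline in 10, only at 6 in 4 and at neither in 6. In shallow controls it was higher at 12 than at 6 in 8 of 9 colonies. EFGB colony 190 had 468 CPM at 6 and 1943 CPM at 12, and EFGB colony 189 had 39.7 CPM at baseline, 742 CPM at 6 and 1603 CPM at 12. EFGB colony 188 stood at 0 at baseline and at 6 and had 763 CPM at 12, while EFGB colony 169 had 698 CPM at 6 and 10.3 CPM at 12, the one decline. Colonies 189 and 190 were thus high at both times, and colonies 188 and 169 at 1 each.

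WFGB shallow colony 118 had 727 CPM at baseline, 0 at 6 and 594 CPM at 12. All 5 WFGB shallow colonies stood at 0 at 6 and were detected again at 12, and 4 of them had been detected at baseline. Among transplants, WFGB colony 54 had 33.4 CPM at baseline, 254.8 CPM at 6 and 0 at 12. WFGB colony 69 had 849 CPM at 6 and 0 at 12. Over the 3 transplant colonies with kept libraries at baseline and at 12, all were detected at baseline and none at 12, on 1 or 2 counts each at baseline.

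The MLL isogroup was rare in every arm. At 6 it was detected in 0 of 8 transplants, in 1 of 7 mesophotic controls (EFGB, 269.04 CPM on 84 counts) and in 0 of 10 shallow controls. At 12 it was detected in 1 of 5 transplants (EFGB, 1.37 CPM on 1 count), in 2 of 6 mesophotic controls (WFGB, 16.2 and 26.3 CPM on 1 count each) and in 2 of 9 shallow controls (341 CPM on 33 counts at EFGB and 14.5 CPM on 1 count at WFGB). The arms overlapped at both times, and 1 library carried nearly all counts of each arm in which it was high.

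Transplants minus mesophotic controls differed in mean log2(host CPM + 1) of the MLL isogroup by -1.15 ± 1.15 (SE) at 6 and -1.23 ± 0.97 at 12 (exact permutation tests within sites, 2-sided, p = 0.4 and 0.464). Transplants minus shallow controls differed by -1.13 ± 1.01 at 12 (exact p = 0.583), and neither arm held a count at 6. Mesophotic minus shallow controls differed by 1.15 ± 1.15 at 6 (permutation p = 0.285) and by 0.10 ± 1.36 at 12 (exact p = 0.872). After Benjamini-Hochberg adjustment over the 12 comparisons of both isogroups, each of these MLL values was 0.696 or more, so none passed. At 6 only 1 library held the MLL isogroup, so the p-values there follow from the numbers of EFGB libraries alone. The tests at 6 could not have passed and carry no conclusion. Single libraries set the size of the differences. Both differences at 6 that involve mesophotic controls were 0 without the EFGB mesophotic control at 269.04 CPM. At 12, transplants minus shallow controls was -0.25 without the EFGB shallow control at 341 CPM, and transplants minus mesophotic controls was -0.71 or -0.57 without 1 or the other of the detected WFGB mesophotic controls. With so few detected libraries these intervals leave room for sizeable differences in either direction. Within an arm and time each library carried its own colony tag, so the p-values at 12 measure the spread between tagged colonies.

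Within colonies the MLL isogroup was rarely found more than once. Of 23 colonies with kept libraries at baseline and at 6, it was detected at both in 1, only at baseline in 5, and at neither in 17. The one repeat was EFGB mesophotic colony 192, with 341 CPM on 16 counts at baseline and 269.04 CPM on 84 counts at 6. WFGB transplant colony 54 had 167 CPM at baseline and 0 at 6 and at 12. The shallow colony with 341 CPM at 12, EFGB 169, stood at 0 at baseline and at 6. Colony 192 is therefore the only one in which a high level recurred.

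**Figure D3:**
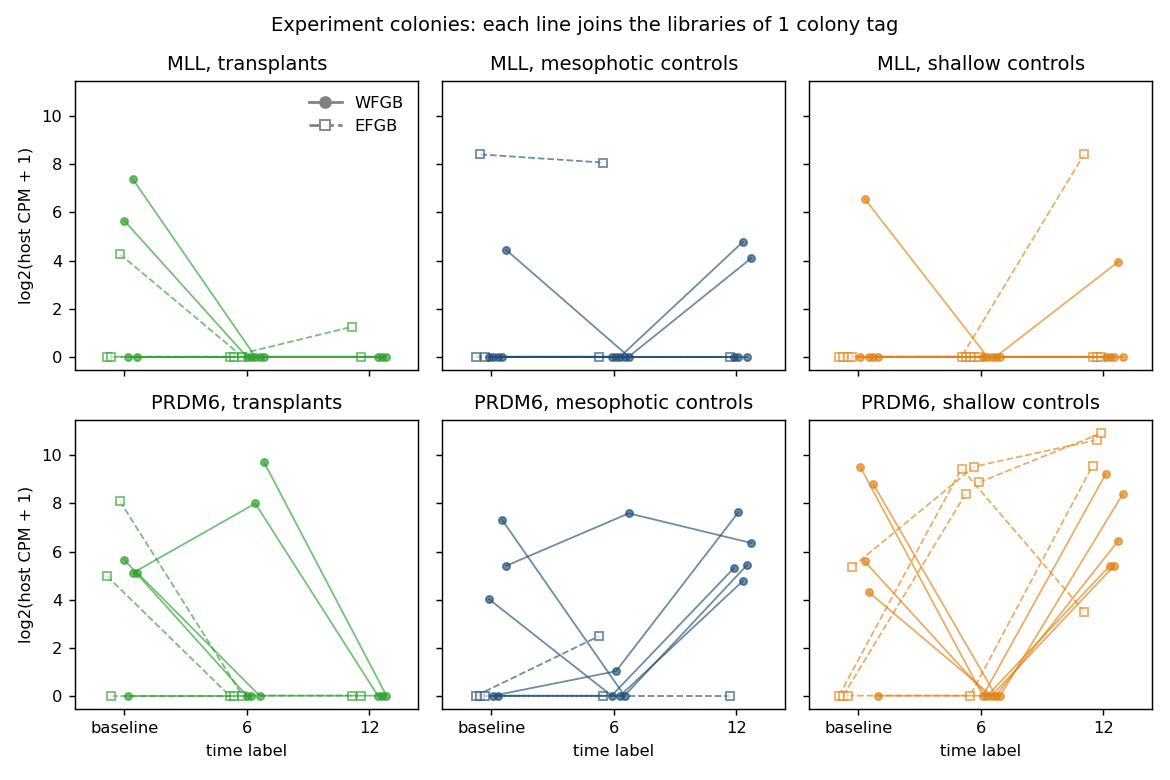
Levels of both isogroups (log2(host CPM + 1)) at baseline and at the time labels 6 and 12, in transplants, mesophotic controls and shallow controls; each line joins the kept libraries of 1 colony tag, filled circles are WFGB and open squares EFGB. The 5 PRDM6 values of transplants at 12 all sit at 0, while all 9 shallow controls sit above it.

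In the control arms each time label had 1 title date, V-16 at 6 and IX-16 at 12, and among transplants 2 of the 8 libraries at 6 also had IX-16 titles. Time and title date therefore cannot be told apart in the controls. Differences between arms at 12 lie within 1 title date.

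Several isogroups carry the same gene names, and reads of a near-identical copy could have been split between them. The mixed-lineage leukemia name is held by 5 isogroups and PR domain containing 6 by 7, of which Mcavernosa19832, Mcavernosa19833 and Mcavernosa19834 have neighbouring numbers. The counts of the MLL and PRDM6 isogroups are uncertain to that extent. Nothing in the files tells gene copies, isoforms and pieces of one transcript apart.

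The other mixed-lineage leukemia isogroups were mostly more widespread. Mcavernosa03658, annotated as a trithorax homolog, was detected in 95.97% of the kept libraries at a median of 153.03 CPM, and Mcavernosa15439, with the same name, in 78.5% at a median of 210.9 CPM. Mcavernosa03521, named mixed-lineage leukemia 5, had 1796 counts, as many as the MLL isogroup, but was detected in 37.6% of libraries against 16.8%. It leaned the other way by natural depth, with 34 mesophotic libraries detected against 61 shallow libraries and a difference of -0.86 ± 0.35 (SE) in log2(host CPM + 1). Its edgeR fold change was -1.23 on the log2 scale (adjusted p = 0.0525, quasi-likelihood test), short of the 0.05 threshold. Mcavernosa32213 was detected in 42 libraries and differed by -0.07 ± 0.28.

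Mcavernosa03658 was called higher in mesophotic colonies by edgeR's quasi-likelihood test, by 0.86 on the log2 scale over the mean of sites (adjusted p = 0.0435). By the mean of log2(host CPM + 1) over libraries it differed by -0.16 ± 0.37 (SE), so its direction turned with the measure. Its depth difference changed between sites in edgeR (adjusted p = 0.00112, where 43.2% of all isogroups were called for depth by site) and missed the threshold in limma (adjusted p = 0.0664, 6.22% called). At CBC edgeR put it 3.39 higher in mesophotic libraries (adjusted p = 2.28e-05), where 12.2% of all isogroups were called higher. Mcavernosa15439 did not pass, with a log2 fold change of 0.10 (edgeR adjusted p = 0.917).

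Among isogroups named PR domain containing 6, the depth difference of Mcavernosa19833 changed with site. On the log2(host CPM + 1) scale it differed, mesophotic minus shallow, by -2.82 at EFGB and by 2.66 at PRTER, with 0.27 at WFGB and 0.20 at CBC. The change of the depth difference between sites passed in edgeR (adjusted p = 2.84e-05), as it did for 43.2% of all isogroups tested. It also passed in limma (adjusted p = 0.00632), as it did for 6.22%. Both tests were added after these values were seen. At EFGB limma gave -1.67 (adjusted p = 0.0223), where 15.9% of all isogroups were called lower, and at PRTER 1.79 (adjusted p = 0.0294), where 0.513% were called higher. With the number of detected isogroups as a covariate, limma called 0% lower at EFGB, so the EFGB call of Mcavernosa19833 went too. The PRDM6 isogroup, its neighbour by number, differed by 0.06 at EFGB and -0.15 at PRTER, and both reached 100 CPM together in 13 of the 58 libraries in which the PRDM6 isogroup did.

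Mcavernosa14002, whose name was inherited from another database, was called higher in mesophotic colonies, by 1.20 on the log2 scale (edgeR adjusted p = 0.0392). This call and that of Mcavernosa03658 were lost under each other setting, namely RLE scaling, a lower detection filter, DESeq2, limma and leaving out the X-14 libraries. On the log2(host CPM + 1) scale it differed by 0.38 ± 0.40 (SE). Mcavernosa22683 and Mcavernosa22685 were found less often in mesophotic natural libraries, of which fewer were kept than of shallow ones. The first was found in 8 mesophotic and 31 shallow libraries, the second in 31 and 57. On the same scale Mcavernosa22683 differed by -1.35 at WFGB, -1.55 at EFGB, -0.06 at PRTER and 0.22 at CBC. Mcavernosa22685 differed by -0.22 at WFGB, -1.26 at EFGB, 0.02 at PRTER and -0.02 at CBC. X-14 libraries came from WFGB and EFGB only. How many of all host isogroups were likewise found less often in mesophotic libraries was not counted. In the experiment at 12, Mcavernosa22685 was detected in 0 of 5 transplants, 5 of 6 mesophotic controls and 7 of 9 shallow controls. Mcavernosa22683 was detected in 0 of 5, 3 of 6 and 1 of 9 in that order. Mcavernosa19833 and Mcavernosa14002 were each detected in 2 of 5, 4 of 6 and 5 of 9, unlike the PRDM6 isogroup. The fold change of Mcavernosa22685 for transplants minus shallow controls was -4.29 on the log2 scale, which did not pass (edgeR adjusted p = 0.0725). The median of all isogroups was -0.60 in that comparison, and -1.20 with RLE scaling. No isogroup passed that comparison in edgeR (0% of 4052, with 1193 at an unadjusted p under 0.05), and limma called 1 of 6715 (0.0149%).

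**Figure D4:**
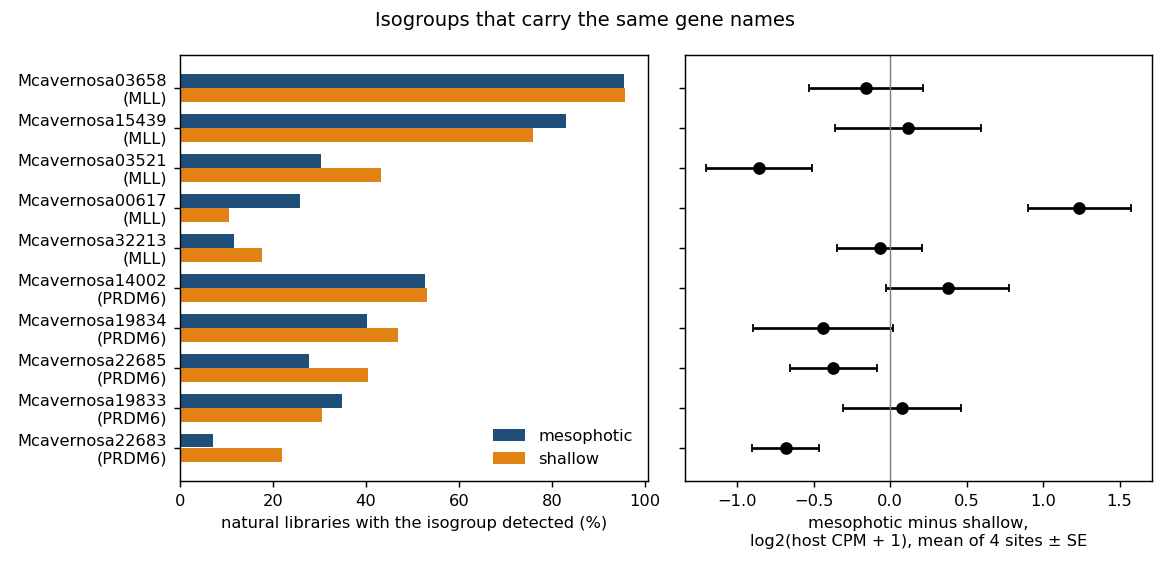
Share of natural libraries with each same-named isogroup detected, mesophotic above shallow (left), and mean difference in log2(host CPM + 1), mesophotic minus shallow, over 4 sites with SE (right), for isogroups detected in at least 30 libraries. The MLL isogroup Mcavernosa00617 lies furthest to the right at 1.24, and Mcavernosa03521 with the same number of counts lies at -0.86. The MLL isogroup was picked from this contrast between depths, so its place among these isogroups is no separate result.

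Genes of the same chromatin machinery were followed through 5 word lists of the annotation, with the MLL and PRDM6 isogroups left out of the counts. Over the mean of sites, edgeR called 15.9% of 3703 isogroups, 5.97% higher and 9.96% lower in mesophotic colonies. Of 48 isogroups on the histone methyltransferase list 12 had enough counts to be tested, and 2 were called higher and 2 lower, with a median log2 fold change of -0.36 over those tested and -0.09 over all isogroups. The 2 higher were Mcavernosa03658 and Mcavernosa14002, described above. The lower were Mcavernosa03076, an Enhancer of zeste homolog of the type that methylates lysine 27 of histone H3 in animals, at -2.08 (adjusted p = 0.000233), and Mcavernosa22442, named SET domain, at -1.15 (adjusted p = 0.0428). Of the 48 names, 5 were caught by their letters alone, 4 of them immunoglobulin I-set or V-set domains. The call of Mcavernosa22442 was lost with RLE scaling, with a lower detection filter, without the X-14 libraries and in limma, and that of Mcavernosa03076 in limma.

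Of 10 isogroups that the words for COMPASS partners picked out, 5 were caught by their letters alone, such as other WD repeat proteins. Of the 5 tested, 3 were of that kind, and 1 was called, lower: Mcavernosa26874, CXXC finger protein 1, which in mammals guides a COMPASS complex to unmethylated CpG DNA (-1.43, edgeR adjusted p = 0.0318). Of 25 on the histone demethylase list 6 were tested, with Mcavernosa03761, lysine demethylase 5A, called higher (1.47, adjusted p = 0.0140) and Mcavernosa08239, a lysine demethylase, called lower (-1.61, adjusted p = 0.00488). KDM5A removes methyl groups from histone H3 lysine 4 in mammals, the mark that mixed-lineage leukemia proteins set. On this list 2 names were other PHD finger proteins. The calls of Mcavernosa26874 and Mcavernosa03761 were lost with RLE scaling, in DESeq2, in limma and without the X-14 libraries, and that of Mcavernosa08239 in DESeq2, in limma and without the X-14 libraries.

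Of 31 acetylation isogroups 4 were tested and 1 was called, lower: Mcavernosa24174, lysine acetyltransferase 7 (-1.73, edgeR adjusted p = 0.000974). Of 24 Polycomb and chromodomain isogroups 9 were tested, with Mcavernosa23888, a Polycomb group ring finger, called higher (1.00, adjusted p = 0.0149) and Mcavernosa00007, a chromobox protein, called lower (-1.44, adjusted p = 0.0149). DESeq2 and limma called neither of these last 2, and the chromobox call was also lost with RLE scaling and without the X-14 libraries. Limma called none of any list over the mean of sites, against 0.543% of 6629 isogroups, and 958 of all isogroups had an unadjusted p under 0.05 in that fit. The share called over all isogroups was 0.121% in limma with the number of detected isogroups as a covariate and 0.0526% in limma without the X-14 libraries. It was 9.59% with RLE scaling, 12% in DESeq2, 14.4% with all isogroups found in at least 2 libraries and 10.3% without the X-14 libraries in edgeR.

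At single sites the called isogroups differed in direction. At EFGB, where edgeR called 2.51% of isogroups higher and 6.24% lower, 4 list isogroups were called and all were lower: Mcavernosa19833 (-6.16, adjusted p = 0.000735), Mcavernosa24174 (-7.11, adjusted p = 4.97e-05), Mcavernosa25825, SET domain bifurcated (-4.15, adjusted p = 0.00527) and Mcavernosa31394, a lysine demethylase (-3.36, adjusted p = 0.0287). At PRTER Mcavernosa24174 and Mcavernosa25825 were called higher, at 3.60 (adjusted p = 0.00457) and 4.09 (adjusted p = 0.000305), against 9.94% of all isogroups called higher there, and their change between sites was not tested. In all, 6 list isogroups were called higher and 2 lower at PRTER (10.5% of all isogroups lower), with 3 of the 4 tested acetylation isogroups higher. At CBC 4 were called higher and 6 lower, where 12.2% of all isogroups were called higher and 16.1% lower. Of the 39 shallow EFGB libraries 25 had X-14 titles. Without these titles 2 list isogroups were called higher at EFGB and 2 lower (Mcavernosa19833 and Mcavernosa24174). Of all isogroups, that fit called 2.49% higher and 3.24% lower at EFGB. With RLE scaling the call of Mcavernosa31394 was lost. When all isogroups found in at least 2 libraries were tested, 15 list isogroups were called higher at EFGB and 24 lower. That fit called 9.41% of all 15126 isogroups higher at EFGB and 18.1% lower. At WFGB none of the list isogroups was called, against 2.75% of all. For EFGB the median log2 fold change of all isogroups was -0.24, or -0.64 with RLE scaling. For PRTER this median was -0.07, or 0.30 with RLE scaling.

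In the experiment 2 list isogroups passed, both for mesophotic minus shallow controls at 6, where edgeR called 1.75% of 4052 isogroups higher. They were the Enhancer of zeste homolog Mcavernosa03076 (7.74 on the log2 scale, adjusted p = 0.0360) and Mcavernosa21633, an immunoglobulin V-set domain caught by its letters (5.30, adjusted p = 0.0345). Limma called neither, and 0% of all isogroups, with 4.78% at an unadjusted p under 0.05. With RLE scaling edgeR called neither, and 0.814% of all isogroups higher. The median log2 fold change of all isogroups in that comparison was 0.49 with TMM and 0.16 with RLE scaling. The Enhancer of zeste homolog, lower in natural mesophotic colonies by edgeR, was thus higher in mesophotic controls at 6, and the difference between these contrasts was not tested.

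By rank over natural libraries, with each site and depth centred, the isogroups most like the MLL isogroup were Mcavernosa02083, a dual-specificity tyrosine-regulated kinase (Spearman 0.37), Mcavernosa05082, a GATA binding protein (0.34), Mcavernosa15586, a peptidase of family M28 (0.32), Mcavernosa25314, an aldehyde dehydrogenase (0.32) and Mcavernosa19470, an ABC transporter (0.32). Those most like the PRDM6 isogroup were Mcavernosa28458, proline and serine rich 1 (0.34), Mcavernosa07498, of the radical SAM superfamily (0.33), Mcavernosa14550, c-myc binding protein (0.33), Mcavernosa22271, a factor of RNA polymerase I (0.33) and Mcavernosa09111, a cut-like homeobox (0.32). All values are over the kept natural libraries and 5075 named isogroups, and libraries share their depth and number of detected isogroups, so correlations of this size in sparse counts describe the libraries only. The GATA isogroup was detected in 35 of the 44 natural libraries that held the MLL isogroup and in 119 libraries in all.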

How the data were processed

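The authors deposited 1 table of raw tag counts, with isogroups of host and symbiont as rows and libraries as columns, and a second table of gene names. The aligner, the read filters, any removal of duplicates and the build of the reference: not given in the sources used here. Sites, depths, arms and time labels come from the labels and colony tags from the titles. Counts were divided by the host total of the library to give CPM, and levels were averaged as log2(CPM + 1). Libraries under 20000 host counts were left out, 13 of 311, which kept 253 natural libraries (112 mesophotic, 141 shallow) and 45 of the experiment, 298 in all, and every column of the table belonged to a sample.

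The members and lists were chosen with earlier results of these data known. Counts of all host isogroups were fitted with edgeR 4.0.16 in R 4.3.3 (TMM scaling, filterByExpr, robust quasi-likelihood test, Benjamini-Hochberg adjustment over all isogroups tested, threshold 0.05), with 1 mean per site and depth for natural libraries, or 1 mean per arm and time plus site for the experiment. Neither member's own p in these fits is reported, and the MLL isogroup did not pass the filter in the experiment. DESeq2 1.42.0 and limma 3.58.1 (log2 CPM with a prior count of 2, isogroups in at least 10% of libraries) were alternatives. The fits were tested on simulated data. Members were compared between arms by exact permutation within sites, or by 100000 resamples where a group held 10 or more libraries, adjusted over 12 comparisons that include those of the PRDM6 isogroup. Intervals are 95% Wilson intervals. Genes named from the lists are those with the smallest p in each direction over the mean of sites, all list members called at a site or in the experiment where they were 5 or fewer, and the 5 named isogroups with the highest rank correlation to each member. The second called histone methyltransferase in each direction and the PRTER and CBC values of isogroups named for other sites were added after their values were seen.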

Additional observations from a re-analysis of the deposited data

Results flagged for a closer look

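In 7 groups of 4 or 5 libraries of the experiment, each looked at for both isogroups (14 sets), 4 values lay far from the others of their group, and chance flags about 1 in 20 groups; groups made mostly of 0s are flagged easily. The MLL isogroup had 341 CPM in 1 of 4 EFGB shallow controls at 12, with the others at 0. It had 14.5 CPM, on 1 count, in 1 of 5 WFGB shallow controls at 12, with the others at 0. The PRDM6 isogroup stood at 0 in 1 of 5 EFGB shallow controls at 6, where the others had 340 to 742 CPM. It had 191.5 CPM, on 4 counts, in 1 of 5 WFGB mesophotic controls at 6, where the others had 0 or 1.02 CPM. Among isogroups with the same names, the depth difference in natural colonies changed between sites for Mcavernosa19833 (edgeR quasi-likelihood test, adjusted p = 2.84e-05) and Mcavernosa03658 (adjusted p = 0.00112), as it did for 43.2% of all isogroups tested.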

How the results depend on the processing

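Between arms or depths at a given time, no paired analysis was possible because colonies differ and replicate numbers only follow the order of deposition. Colony tags do pair times within colonies. Kept libraries exist for 23 colonies at baseline and 6, 17 at baseline and 12, and 18 at 6 and 12. The change from a colony's own baseline could thus be compared between arms, but this was not tested. The pairs of times within colonies are described without a test. The mean depth difference of the MLL isogroup was 0.73 to 1.47 under 13 other settings, and 0.83 without the 5 libraries with most of its counts; from pooled CPM it was 4.98. That of the PRDM6 isogroup was -0.71 to -0.17 under 13 settings and 0.35 from pooled CPM. In the experiment, mesophotic minus shallow controls at 12 for the MLL isogroup turned to -0.17 with a pseudocount of 10 CPM and ran from -0.55 to 0.98 as each library was left out. For the PRDM6 isogroup at 6, transplants and mesophotic controls minus shallow controls turned to 3.55 and 1.72 with EFGB left out, and transplants minus mesophotic controls ran from -0.44 to 1.63 as each library was left out. At 12, transplants minus shallow controls ran from -8.25 to -7.33 on leaving out each library, and were -4.59 with a pseudocount of 10 CPM. The cause of these shifts was not tested.

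Over the mean of sites, list isogroups called higher and lower numbered 1 and 3 with RLE scaling in edgeR, and 1 and 3 in DESeq2. In edgeR they numbered 8 and 11 with all isogroups in at least 2 libraries tested, and 1 and 2 without X-14 libraries. Of all isogroups, 3.24% were called higher and 6.35% lower with RLE scaling, and 4.46% and 7.51% in DESeq2. The wider filter called 5.23% and 9.16%, and the fit without X-14 libraries 5.36% and 4.9%. Over the mean of sites limma called 0 list isogroups in all 3 of its fits. At EFGB limma called 14 list isogroups lower and 0 higher, where it called 15.9% of all isogroups lower. Its fits with the covariate and without X-14 libraries called 0 list isogroups at EFGB. At PRTER each of the 3 fits called 2 list isogroups higher and 0 lower. Of all isogroups they called 0.513%, 0.543% with the covariate and 0.456% without X-14 libraries higher there. RLE scaling and limma called 0 in the experiment. The median of all isogroups was 0.05 without X-14 libraries and -0.09 with them. Few counts limit both members: 24 of 50 MLL and 61 of 134 PRDM6 detections rest on 1 or 2 counts. DESeq2 was not run on the experiment.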

Other observations

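Of the 13 libraries left out for low host totals (2251 to 19837 counts), 7 held the PRDM6 isogroup and 1 the MLL isogroup, all on few counts (11 and 1 in all). Of the 21 kept libraries in which the MLL isogroup reached 100 CPM, 17 were natural mesophotic ones.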
